A study of Mus musculus with 24 samples.

Results

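The 42 genes described here encode the machinery of DNA replication and S phase, from the helicase that opens the double helix to the enzymes that make its building blocks. They are a fixed list of symbols, kept where a gene stood in all 6 deposited tables and its normalised count averaged 10 or more. All 42 of 42 listed genes met the rule, out of 22981 genes present in every table. The RNA came from C127, a mouse mammary line that the labels call adenocarcinoma cells, and 24 libraries form 8 groups of 3.

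All cells were glucocorticoid receptor knockout (GRKO) cells that had been given a GFP-tagged mouse receptor back, so no group lacked a receptor. One line carried GFP-mGRtetra (tetra), a form that the labels do not describe, and the other carried GFP-mGRwt (wt). Each line had 4 groups of 3 libraries. These were 100 µM TCA plus 100 nM corticosterone (Cort, the glucocorticoid that mice chiefly make), 100 µM TCA alone, 100 nM Cort alone, each for 2 h, and vehicle. The labels do not spell out TCA, and in a series on bile acids the usual reading is taurocholic acid. Every group had been kept for 24 h in medium with 10% charcoal-stripped serum, which is low in steroids. An effect of the receptor form and one of the cell line that carries it cannot be told apart. The labels name no batch, so a batch that follows a group could not be tested, and they do not say that replicates came from separate cultures. The p-values then measure the spread between these libraries, which may be technical.

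Libraries held 22024666 to 30568577 exon reads, of which the ribosomal precursor Rn45s took 18.2 to 28.6%. An adenocarcinoma is of glandular epithelial origin, so the label was checked against epithelial markers, whose defining members were nearly absent. Epcam had a normalised count of 0 in all 24 libraries, and Cdh1, Krt18 and Krt5 reached at most 1.13, 2.06 and 1.18. Krt14 lay between 137.5 and 1211, and the mesenchymal marker Vim between 61420.0 and 118200.0. The other mesenchymal markers were mixed. Fn1, Col1a2, Pdgfrb and Cdh2 had at least 29450, 39630, 3155 and 2451, while Col1a1, Acta2 and Thy1 reached at most 237.1, 20.66 and 9.788. Nr3c1, the receptor gene, had counts of 4176 to 6481 in all libraries, and reads of transgene and knocked-out gene fall under the same symbol. Some libraries were often an extreme of their group for the replication genes, most of all a pair of tetra libraries. TCA plus Cort replicate 2 had the lowest count of its group for 38 of the 42 genes, and vehicle replicate 2 had the highest of its group for 34. Next came Cort replicate 1 in wt, highest for 28 genes, and vehicle replicate 1 and Cort replicate 2 in tetra, lowest for 27 each. The ranks were not counted over all genes, so they cannot be read as a trait of these genes.

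Replication starts at origins, where the origin recognition complex, Cdc6 and Cdt1 load the MCM helicase in G1. In S phase the helicase is switched on by Cdc45, the GINS complex and Mcm10, and primase, DNA polymerases, the sliding clamp and its loader copy both strands. Many of these genes are transcribed together at the G1/S boundary by E2F factors, which is why their mRNA is widely used as a measure of cells entering or passing S phase. In bulk RNA such as this, fewer cells in S phase and less mRNA per cell cannot be told apart.

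E2F factors bind GC-rich sites, and promoters (250 bases before to 50 after the start) from RefSeq, build GRCm38.p6, were searched for TTTCCCGC, TTTGGCGC, TTTCGCGC and TTTGCCGC on both strands, counting overlapping matches. Of the 42 genes, 36 had a promoter in the table, and 14 of these (38.9%) held a match, beside 704 of all 27025 genes in the table (2.61%) and 4.75% of the tested genes that had a promoter. The 14 were Mcm3, Mcm5, Mcm6, Mcm7, Orc1, Cdc6, Cdt1, Gins3, Pola1, Pold1, Rfc3, Lig1, E2f2 and Uhrf1. Shown here are 3 helicase promoters with matches in capitals, at chr8:75109259-75109558 (Mcm5, plus strand), chr1:128359656-128359955 (Mcm6, minus strand) and chr5:138171834-138172133 (Mcm7, minus strand), and that of Rrm2 at chr12:24708004-24708303 (plus strand), the gene that moved against the others and holds no match in this window.
Mcm5: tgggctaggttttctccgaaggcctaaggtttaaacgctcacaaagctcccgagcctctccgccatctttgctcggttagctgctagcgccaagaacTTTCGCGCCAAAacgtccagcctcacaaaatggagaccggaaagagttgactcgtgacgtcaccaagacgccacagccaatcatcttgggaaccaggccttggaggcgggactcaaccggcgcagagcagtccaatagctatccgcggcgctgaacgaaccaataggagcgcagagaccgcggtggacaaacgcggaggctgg
Mcm6: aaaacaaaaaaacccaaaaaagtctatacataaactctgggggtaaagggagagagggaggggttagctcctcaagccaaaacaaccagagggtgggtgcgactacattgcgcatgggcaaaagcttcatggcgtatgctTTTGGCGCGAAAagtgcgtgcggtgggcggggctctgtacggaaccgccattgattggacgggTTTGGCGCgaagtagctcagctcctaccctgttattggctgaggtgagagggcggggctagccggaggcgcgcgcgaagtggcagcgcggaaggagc
Mcm7: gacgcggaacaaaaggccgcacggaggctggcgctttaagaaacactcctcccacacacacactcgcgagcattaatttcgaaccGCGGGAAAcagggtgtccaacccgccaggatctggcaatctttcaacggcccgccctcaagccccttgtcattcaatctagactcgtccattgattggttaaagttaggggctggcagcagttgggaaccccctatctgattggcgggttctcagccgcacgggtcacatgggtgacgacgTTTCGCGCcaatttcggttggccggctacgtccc
Rrm2: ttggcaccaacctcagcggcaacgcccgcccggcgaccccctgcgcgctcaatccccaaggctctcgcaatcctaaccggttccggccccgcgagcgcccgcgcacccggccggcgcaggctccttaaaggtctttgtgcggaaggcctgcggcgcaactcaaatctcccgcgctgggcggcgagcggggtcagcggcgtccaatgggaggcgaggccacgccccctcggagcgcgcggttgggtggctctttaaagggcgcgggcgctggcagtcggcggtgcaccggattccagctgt
A match describes letters only and shows neither binding nor regulation. Of the 28 genes with a promoter here that rose with TCA in wt, 13 held a match. Those without one included Mcm2, Orc6, Mcm10, Prim1 and Tyms.

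Values below are normalised counts, read counts recovered from the deposited scale and divided by size factors over the 24 libraries, and fold changes are ratios of group means. A gene is called when its adjusted p from limma, over all genes tested, is below 0.05. Levels differed widely among the genes. Per kb of transcript, Rrm2 (4464), Pcna (3780) and Uhrf1 (1874) had the highest mean over 24 libraries, and Orc1 (75.1), E2f2 (77.5) and Gins3 (129) the lowest. The wt groups with TCA held most of the highest levels. TCA in wt was the highest of the 8 groups for 23 of the 42 genes and TCA plus Cort in wt for 12, while vehicle in wt was the lowest for 17 and Cort in wt for 14. The same counts were not made over all genes, so they cannot be read as a trait of the 42. Summed over the 42 genes, CPM (of exon reads without Rn45s) in tetra was 4388 ± 353 with TCA plus Cort, 4219 ± 81.3 with TCA, 4471 ± 147 with Cort and 4259.7 ± 255 with vehicle (SD, n = 3 each). In wt the same sums were 4617 ± 24.8 with TCA plus Cort, 4747 ± 32.3 with TCA, 4033 ± 95.7 with Cort and 3919 ± 51.7 with vehicle. In CPM the lowest and highest libraries of the tetra groups overlapped across treatments, whereas every wt library with TCA lay above every wt library without it. As normalised counts the wt sums were 86987 ± 843 with TCA plus Cort, 90647 ± 1298 with TCA, 80281 ± 2100 with Cort and 80314 ± 1405 with vehicle. The tetra sums were 84583 ± 7238 with TCA plus Cort, 80820.5 ± 980 with TCA, 85588.5 ± 2662 with Cort and 81472 ± 5136 with vehicle. On this scale the gap between wt TCA and wt vehicle, and that between tetra and wt vehicle, was smaller in proportion.

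**Figure D1:**
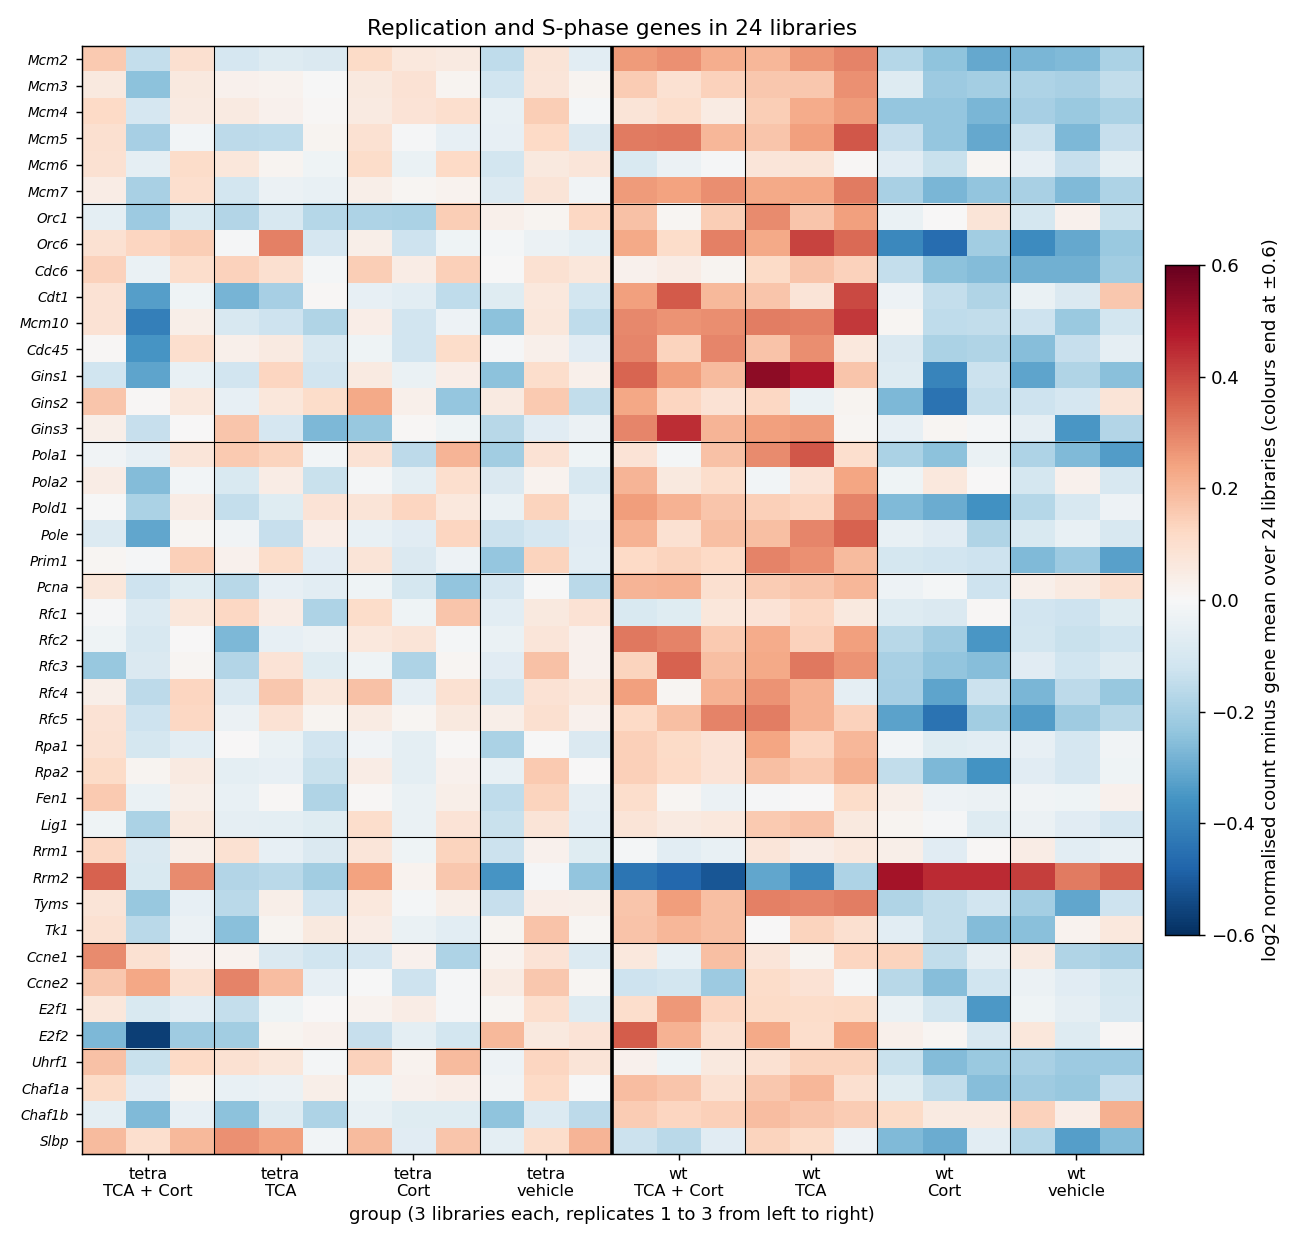
Normalised counts of the 42 genes (rows, ordered by role) in 24 libraries (columns), as log2 minus the mean of the gene over all libraries. The tetra libraries show no split by TCA, while the wt libraries with TCA are mostly red and those without it mostly blue, with the opposite for Rrm2.

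TCA against vehicle in wt cells asked whether 2 h of TCA moved these genes. Of the 42, 33 rose and 1, Rrm2, fell, against 28.8% of 12725 tested genes called higher and 28.6% called lower (57.4% called in all). The median fold of the 42 genes was 1.25, and their median log2 difference on the deposited scale was 0.27, beside 0.0017 over all genes. In 34 of the 42 every TCA library lay above every vehicle library, beside 30.6% of all genes. Scaled to exon reads without Rn45s, 39 rose and 1 fell, and the split over all genes became 4760 higher and 2825 lower, against 3670 and 3633. Rn45s took 21.3 to 27.9% of exon reads in wt TCA libraries and 20.8 to 22.8% in wt vehicle libraries; its part in the result was not tested.

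Markers of other cell types also moved with TCA in wt. Only 1 of the 10 epithelial and mammary markers, Krt14, passed the filter, and it fell; the 10 summed to 159.0 to 268 with TCA and 1076 to 1225 with vehicle in wt, and to 590.4 to 597 with TCA and 527 to 659 with vehicle in tetra. Of the 8 mesenchymal markers 4 fell and 2 rose, and the 8 summed to 155738 to 169714 with TCA and 221072 to 226948 with vehicle in wt. The 3 endothelial markers summed to 123 to 164 with TCA and 266 to 294 with vehicle. In tetra the same sums were 187462 to 239898 with TCA and 196208 to 201246 with vehicle for the mesenchymal, and 151 to 216 with TCA and 194.0 to 209.0 with vehicle for the endothelial markers. The immune and endothelial genes that could be tested, Cd68 and Cdh5, fell, while Adgre1, Cd3e and Kdr never passed 1.97 in any library. The part of these markers in the result was not tested.

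All 6 MCM genes, which encode the ring-shaped replicative helicase, rose with TCA in wt. Mcm2 had 3559, 3733 and 3822 in the 3 TCA libraries and 2563, 2583 and 2721 in the vehicle libraries (1.41-fold, adjusted p = 8.64e-07). Mcm7 had 3678, 3695 and 3909 with TCA and 2752, 2615 and 2767 with vehicle (1.39-fold, adjusted p = 1.25e-06). For both, the lowest TCA library was far above the highest vehicle library. Mcm5 had 3677, 3892 and 4255 with TCA and 2997, 2721 and 2984 with vehicle (1.36-fold, adjusted p = 1.88e-05), and Mcm4 had 3749, 3948 and 4044 with TCA and 2944, 2901 and 2964 with vehicle (1.33-fold, adjusted p = 3.23e-06). Mcm3 rose 1.30-fold. Mcm6 changed least in this ring, at 4114, 4129.7 and 3933 with TCA and 3778, 3557 and 3753 with vehicle (1.10-fold, adjusted p = 0.016). The call of Mcm6 was lost without vehicle replicate 2, TCA replicate 1 or TCA replicate 2 (adjusted p 0.000575 to 0.0906 over its alternatives). The microRNA genes Mir25, Mir93 and Mir106b lie inside Mcm7 on the same strand.

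Of the 9 genes of origin licensing and helicase activation, 8 rose. Orc6, the small subunit of the origin recognition complex, had 721, 815 and 779 with TCA and 474, 497 and 529 with vehicle (1.54-fold, adjusted p = 5.78e-06). Mcm10, which helps to activate the loaded helicase, had 921, 916 and 996 with TCA and 682, 637 and 689 with vehicle (1.41-fold, adjusted p = 1.51e-05). Neither gene's groups overlapped. Cdc6, the licensing ATPase, had 1022, 1059 and 1037 with TCA and 772, 771 and 816 with vehicle (1.32-fold, adjusted p = 3.75e-05). Within the GINS complex, which travels with the helicase, Gins1 had 435, 419 and 336 with TCA and 241, 264 and 252 with vehicle (1.57-fold, adjusted p = 0.000121), and Gins3 rose 1.29-fold. Gins2, at 393 ± 22.5 with TCA and 371 ± 29.2 with vehicle (SD, n = 3), was not called (adjusted p = 0.393), and it overlaps Gse1 on the opposite strand, which makes its count uncertain. Orc1 rose 1.23-fold, Cdc45 1.25-fold and Cdt1 1.15-fold. The Cdt1 groups overlapped, and its call (adjusted p = 0.0388) was lost without vehicle replicate 1 or 2 or TCA replicate 1 or 3, without the trend and without the filter (0.000963 to 0.164 over its alternatives). That of Orc1 (adjusted p = 0.0132) was lost without TCA replicate 1 (0.0027 to 0.0558 over its alternatives).

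Among polymerases, 4 of 5 rose. Prim1, the catalytic primase subunit that lays down RNA primers, had 959.6, 945 and 889.8 with TCA and 649.5, 671 and 623 with vehicle (1.44-fold, adjusted p = 7.28e-06). Pola1, the catalytic subunit of its partner polymerase alpha, had 1686, 1797 and 1487 with TCA and 1217, 1153 and 1099.7 with vehicle (1.43-fold, adjusted p = 2.05e-05). The accessory subunit Pola2, at 708 ± 62.2 with TCA and 634 ± 32.4 with vehicle, was not called (adjusted p = 0.0765). Under 3 alternatives it was called: without TCA replicate 1, with a replicate block and when scaled to exon reads without Rn45s (0.00874 to 0.242 over its alternatives). Pole, the leading-strand polymerase, rose 1.28-fold. Pold1, the catalytic subunit of the lagging-strand polymerase delta, had 1969, 1949 and 2191 with TCA and 1584, 1668 and 1747 with vehicle (1.22-fold, adjusted p = 0.000678).

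Of the 10 genes of the clamp, its loader, single-strand binding and Okazaki fragment joining, 9 rose. All 5 Rfc genes, the subunits of the loader that opens the clamp, were among them. Rfc5 had 868, 811 and 773 with TCA and 557, 606 and 627 with vehicle (1.37-fold, adjusted p = 8.2e-05), and Rfc2 had 1339, 1261 and 1360.3 with TCA and 1062, 1045 and 1055 with vehicle (1.25-fold, adjusted p = 0.000138). Rfc1, Rfc3 and Rfc4 rose 1.14-, 1.28- and 1.29-fold, and Rfc4 overlaps Eif4a2 on the opposite strand. The single-strand binding genes Rpa1 and Rpa2 rose 1.19- and 1.19-fold, and the DNA ligase Lig1 1.15-fold. Pcna, the clamp itself, had 5244, 5298 and 5412 with TCA and 4808, 4889 and 5043 with vehicle (1.08-fold, adjusted p = 0.0263), the smallest fold among the 33 rises. That call was lost without vehicle replicate 1 or 2, without TCA replicate 1 or 2, and without the trend (adjusted p 0.00059 to 0.107 over its alternatives). Reads of Pcna could be split with the pseudogenes Pcna-ps1 and Pcna-ps2. Fen1, the flap nuclease of Okazaki fragments, had 1452 ± 67.4 with TCA and 1409 ± 27.0 with vehicle and was not called (adjusted p = 0.431).

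The deoxynucleotide genes split. Rrm2, the small subunit of ribonucleotide reductase, which is made in S phase and limits the enzyme, had 7599, 7222 and 8298 with TCA and 12555, 11697 and 12095 with vehicle, 1.57-fold lower (adjusted p = 2.67e-07). Its highest TCA library lay well under its lowest vehicle library, and it had the smallest adjusted p of the 42 genes. The large subunit Rrm1, at 5049.7 ± 51.5 with TCA and 4776 ± 189.7 with vehicle, was not called (adjusted p = 0.104). Tyms, the thymidylate synthase, had 995, 987 and 998 with TCA and 701, 648 and 741 with vehicle (1.43-fold, adjusted p = 1.02e-05), so Tyms and Rrm2 moved in opposite directions. Tyms has a transcribed pseudogene, Tyms-ps, that could share its reads. Thymidine kinase Tk1, which overlaps Afmid on the opposite strand, had 1714 ± 79.9 with TCA and 1568 ± 178 with vehicle (adjusted p = 0.118).

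Of the 4 regulators of G1/S 2 rose. E2f1, an activator of the programme, had 2307, 2300.2 and 2309 with TCA and 2090.0, 2050.2 and 1995 with vehicle (1.13-fold, adjusted p = 0.00387). Ccne2, a cyclin that drives entry into S phase and overlaps Ints8 on the opposite strand, had 1389, 1367 and 1277 with TCA and 1256, 1229 and 1198 with vehicle (1.10-fold, adjusted p = 0.0435). The Ccne2 call was lost without vehicle replicate 1, 2 or 3 and without TCA replicate 1 or 2, and under 3 other settings (adjusted p 0.00293 to 0.159 over its alternatives). Ccne1 (adjusted p = 0.0587) and E2f2 (adjusted p = 0.0504) were not called. Under 3 alternatives Ccne1 was called, among them without vehicle replicate 1 and with a replicate block (0.00734 to 0.191 over its alternatives). E2f2 was called under 7, among them without TCA replicate 2, without the trend and with a replicate block (0.00649 to 0.17). Of the genes that copy chromatin, Uhrf1, which guides the maintenance of DNA methylation, had 7050.3, 7259 and 7270.2 with TCA and 5789, 5696 and 5697 with vehicle (1.26-fold, adjusted p = 1.13e-05). Chaf1a, the large subunit of the chromatin assembly factor CAF-1, had 2964, 3049 and 2834 with TCA and 2289, 2268 and 2410.1 with vehicle (1.27-fold, adjusted p = 3.17e-05). Its partner Chaf1b, at 1166 ± 13.1 with TCA and 1138 ± 69.0 with vehicle, was not called (adjusted p = 0.536). Slbp, which binds histone mRNA, rose 1.25-fold. The 14 genes with a motif match had a median fold of 1.27 (1.098 to 1.43) and the 22 without one a median of 1.19 (0.636 to 1.54); the 6 genes with no promoter in the table are in neither.

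**Figure D2:**
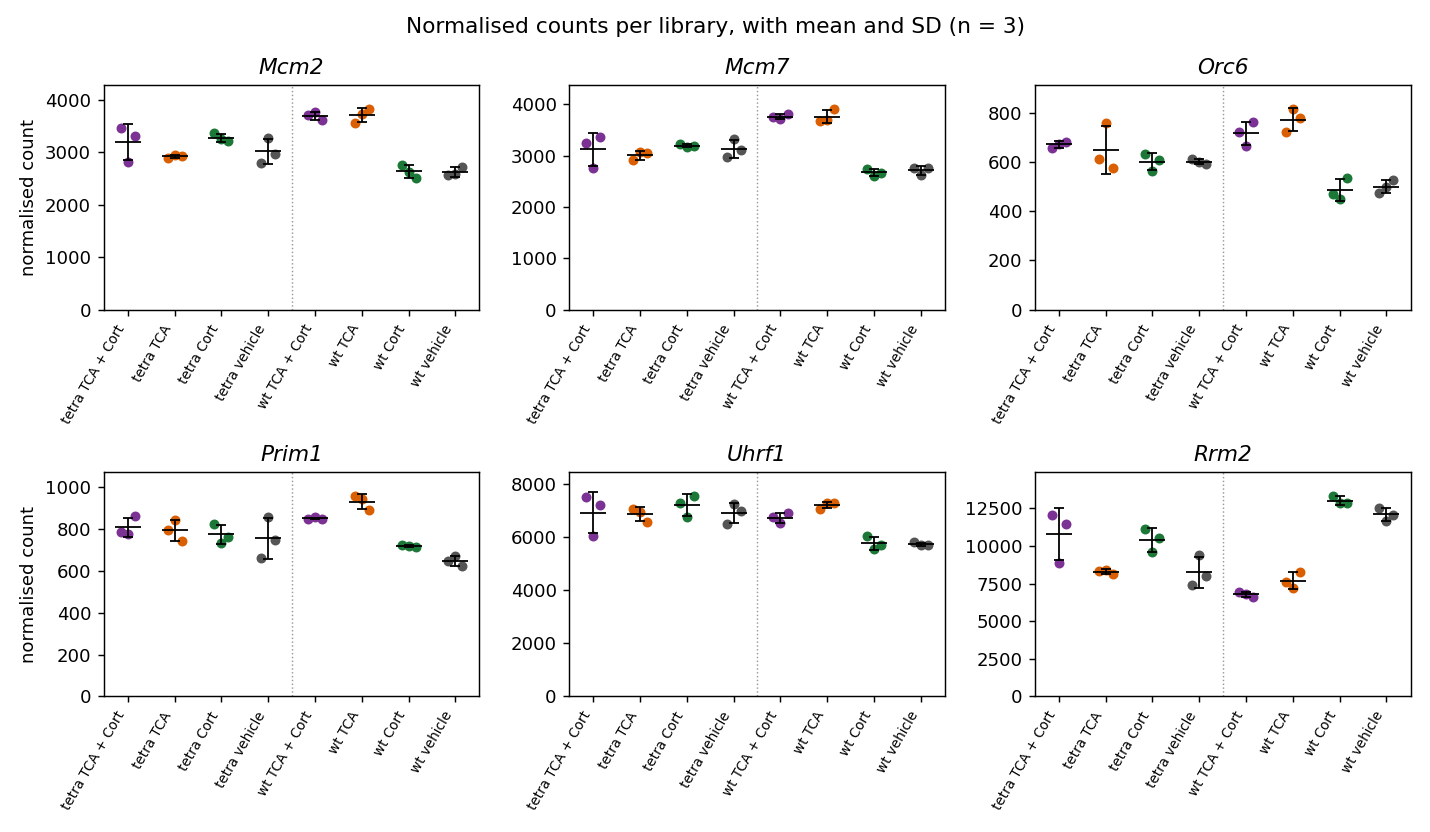
Normalised count (vertical axis, from 0) of 6 genes in every library, by group (3 points each), with the group mean and SD. The tetra TCA and vehicle groups overlap in each of these genes, while in wt the TCA groups lie above the groups without TCA for Mcm2, Mcm7, Orc6, Prim1 and Uhrf1 and below them for Rrm2.

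In tetra cells the same treatment gave no call among the 42 genes by limma or by limma voom, and none had an unadjusted p under 0.05; 0.0153% of 13075 tested genes were called. The median fold was 0.994, from 0.867 for Orc1 to 1.10 for Pola1. Mcm2 had 2891, 2939 and 2922 with TCA and 2796, 3274 and 2971 with vehicle (adjusted p = 0.953). Orc6 had 614, 759 and 575 with TCA and 611, 601 and 592 with vehicle, Uhrf1 7066, 6936 and 6571 with TCA and 6490.1, 7244 and 6979 with vehicle, and Rrm2 8341, 8428 and 8152 with TCA and 7377, 9381 and 7992 with vehicle. In each of these 4 genes the tetra groups overlapped. The spread between replicates was wider in tetra, with a median coefficient of variation over the 42 genes of 6.05% with TCA and 6.36% with vehicle, against 4.31% with TCA and 3.82% with vehicle in wt. The median standard error of the log2 difference on the deposited scale was 0.060 in tetra and 0.053 in wt. These scales compress changes to different degrees in the tetra and wt tables. The standard errors therefore cannot be set against each other as a measure of precision. A missing call does not show that a gene did not differ. Without tetra vehicle replicate 2, the median log2 difference was 0.02 in place of -0.01, and 26 of 42 genes lay above 0 in place of 16. In 3 genes, Orc1, Rpa2 and E2f2, every tetra TCA library lay below every vehicle library (beside 4.96% of all genes); Orc1 had 198, 209 and 198 with TCA and 228, 226 and 244 with vehicle.

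The difference between the lines in the response to TCA was tested directly in 1 fit over 12 libraries. Of the 40 genes that could be tested, 27 differed, 26 with a smaller and 1 with a larger value in tetra, beside 19.9% and 21.6% of 12180 genes (41.6% in all). Tyms and Ccne2 could not enter, because the tables hold a different transcript of them. The median difference, tetra minus wt on the log2 scale, was -0.34 for these genes and 0.0057 for all genes. Scaled to exon reads without Rn45s the median of all genes shifted to -0.10, that of the replication genes to -0.45, and 34 had a smaller and 1 a larger value in tetra; over all genes the split became 1950.0 higher and 3494 lower, against 2634 and 2428.

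Mcm7 (-0.53 ± 0.08 SE, adjusted p = 2.47e-05), Mcm2 (-0.54 ± 0.08, adjusted p = 3.82e-05), Mcm5 (-0.53 ± 0.10, adjusted p = 0.000287) and Mcm4 (-0.42 ± 0.08, adjusted p = 0.000336) had the smallest adjusted p among the smaller responses in tetra. By size, Gins1 came first (-0.64 ± 0.16, adjusted p = 0.00338), and Orc6, Mcm10, Orc1, Rfc5, Rfc2, Rfc3 and Prim1 also lay below Mcm4. Chaf1a differed by -0.39 ± 0.08 (adjusted p = 0.00053). Rrm2 differed the other way, by 0.67 ± 0.10 (adjusted p = 4.51e-05). Some calls of a difference were lost when 1 library was left out. Rpa1 lost its call without any of 9 of the 12 libraries (adjusted p 0.00357 to 0.146 over its alternatives) and Cdt1 without any of 8 (0.00806 to 0.131), so both sat at the threshold. Cdc45 lost it without tetra TCA replicate 3, tetra vehicle replicate 2, wt TCA replicate 1 or 2 or wt vehicle replicate 1 (0.00462 to 0.0831). Lig1 lost it without tetra vehicle replicate 2, wt TCA replicate 1 or 2 or wt vehicle replicate 2 or 3 (0.00299 to 0.123). The E2F genes were also near the threshold. E2f1 lost its call without tetra vehicle replicate 2 or wt vehicle replicate 3 (0.0018 to 0.0788), and E2f2 without tetra TCA replicate 1, tetra vehicle replicate 1, wt TCA replicate 1 or wt vehicle replicate 2 (0.00453 to 0.0621). For Mcm6 (-0.12 ± 0.08, adjusted p = 0.236) and Pcna (-0.12 ± 0.08, adjusted p = 0.227) no difference was called.

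**Figure D3:**
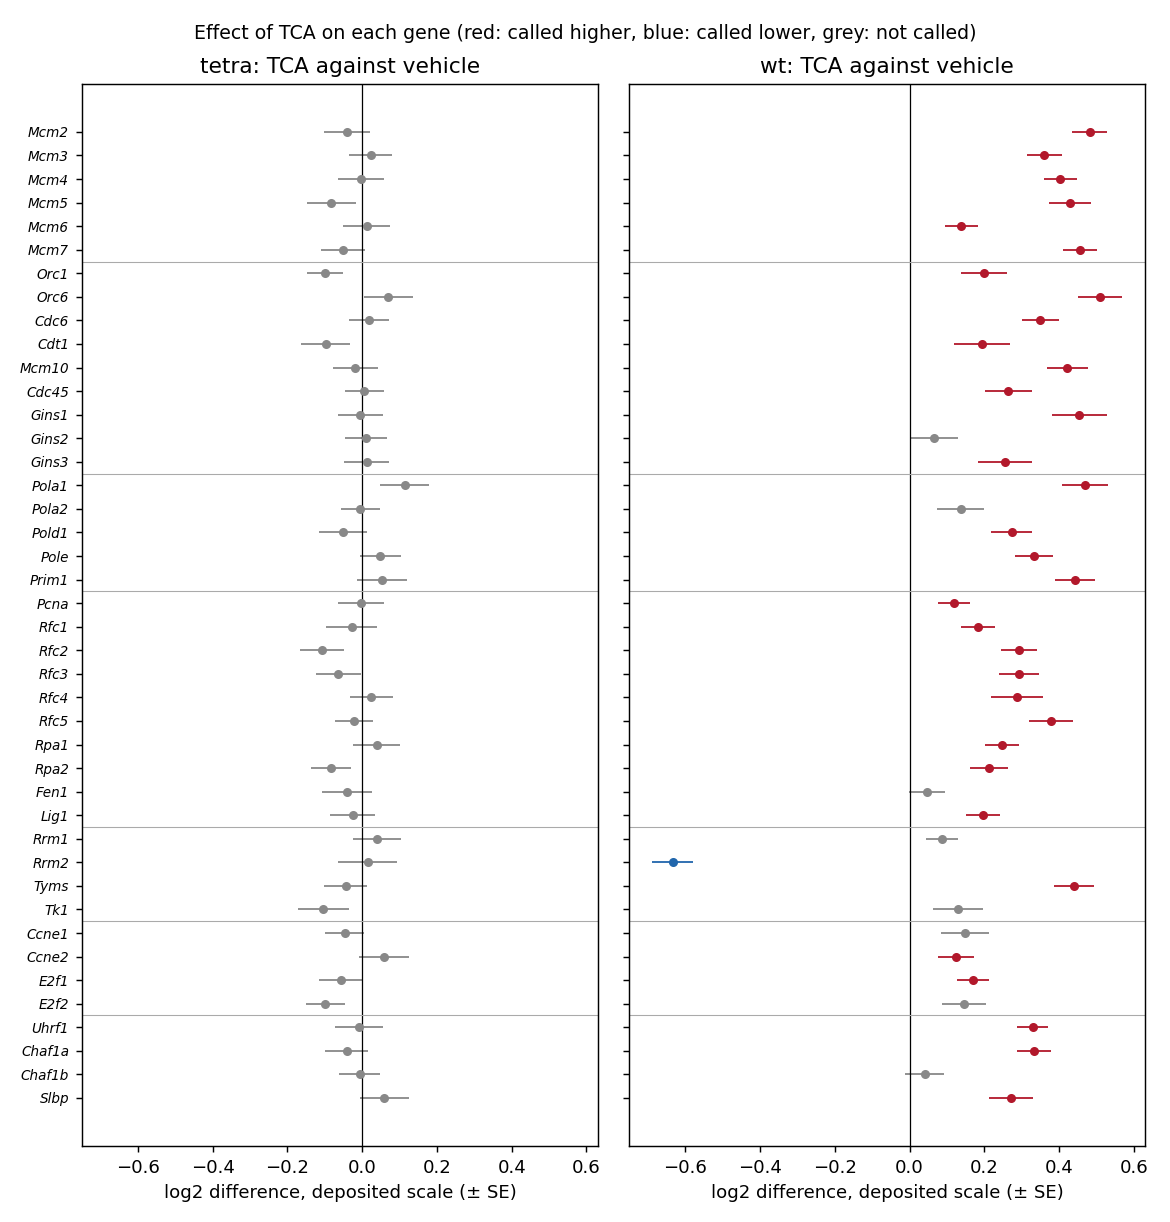
Log2 difference between TCA and vehicle on the deposited scale (horizontal axis, ± SE) for each gene (rows by role) in tetra (left panel) and wt (right panel). The deposited scales of the panels compress changes to different degrees, so equal distances are not equal fold changes between panels. In tetra none is called, and in wt 33 genes are called higher and Rrm2 lower.

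TCA plus Cort against Cort asked the question of TCA again with other libraries, since it shares none with TCA against vehicle. A batch or culture difference common to the wt groups with TCA would enter both comparisons and could not be tested. Rn45s took 25.6 to 28.6% of exon reads in the TCA plus Cort libraries and 18.2 to 21.6% in the Cort libraries of wt, and its part in the result was not tested. Marker sums also differed: the epithelial list summed to 140.2 to 189 with TCA plus Cort and 912 to 1224 with Cort, the mesenchymal list to 152818 to 154796 with TCA plus Cort and 199298 to 209544 with Cort, and the endothelial list to 96.8 to 146 with TCA plus Cort and 283 to 308 with Cort. Their part was not tested either. Here 30 of the 42 genes rose and Rrm2 fell, beside 29.3% and 29.6% of 12482 genes (58.9% in all; 4608 higher and 2911 lower when scaled to exon reads without Rn45s, against 3655 and 3695). In all, 27 genes rose in both comparisons, 81.8% of the 33 and 90% of the 30, and Rrm2 fell in both. The same overlap was not counted over all genes, so it cannot be read as a trait of these genes. Rrm2 had 6953, 6808 and 6616 with TCA plus Cort and 13347, 12859 and 12879 with Cort, 1.92-fold lower (adjusted p = 3.44e-13). Mcm7 had 3753, 3713 and 3812 with TCA plus Cort and 2748, 2604 and 2667 with Cort (1.41-fold, adjusted p = 1.1e-08). Mcm2 had 3709, 3759 and 3611 with TCA plus Cort and 2761, 2626 and 2513 with Cort (1.40-fold, adjusted p = 2.96e-08). These groups did not overlap, and 5 of the 6 helicase genes rose, all but Mcm6. In 32 of the 42 genes every TCA plus Cort library lay above every Cort library and in 1 below, beside 31.9% and 32% of all genes.

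Pold1 had 2119, 2061 and 1999.9 with TCA plus Cort and 1485, 1450.0 and 1386 with Cort (1.43-fold, adjusted p = 3.5e-08). Mcm5 had 4079, 4083 and 3763 with TCA plus Cort and 2978, 2793 and 2656 with Cort (1.42-fold, adjusted p = 6.37e-08), and Rfc2 had 1431, 1409.7 and 1278 with TCA plus Cort and 1023, 989 and 902 with Cort (1.41-fold, adjusted p = 1.01e-06). Orc6 had the highest fold of the 42 here, 722, 665 and 761 with TCA plus Cort and 471, 449.5 and 534 with Cort (1.48-fold). Gins2, Tk1 and E2f2 were called higher on top of Cort only, at 1.35-, 1.27- and 1.18-fold, and Mcm6, Orc1, Rfc1, Lig1, Ccne2 and Slbp against vehicle only. Against vehicle, E2f2 was called under 7 alternatives and Tk1 under 2. Without TCA plus Cort replicate 1 the call of E2f2 was lost, and without Cort replicate 3 Slbp was called (adjusted p 0.00262 to 0.139 for E2f2 and 0.0426 to 0.662 for Slbp over their alternatives). Whether these 9 responses differ between the 2 comparisons was not tested. In tetra, none of the 41 genes tested was called for TCA plus Cort against Cort by limma or limma voom, and 3 had an unadjusted p under 0.05, beside 0.0643% of 12449 genes called. Their median fold was 0.971, a direction that rested on 1 library. Without TCA plus Cort replicate 2 the median log2 difference was 0.03, with 29 of 41 genes above 0, in place of -0.04 with 11 of 41.

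**Figure D4:**
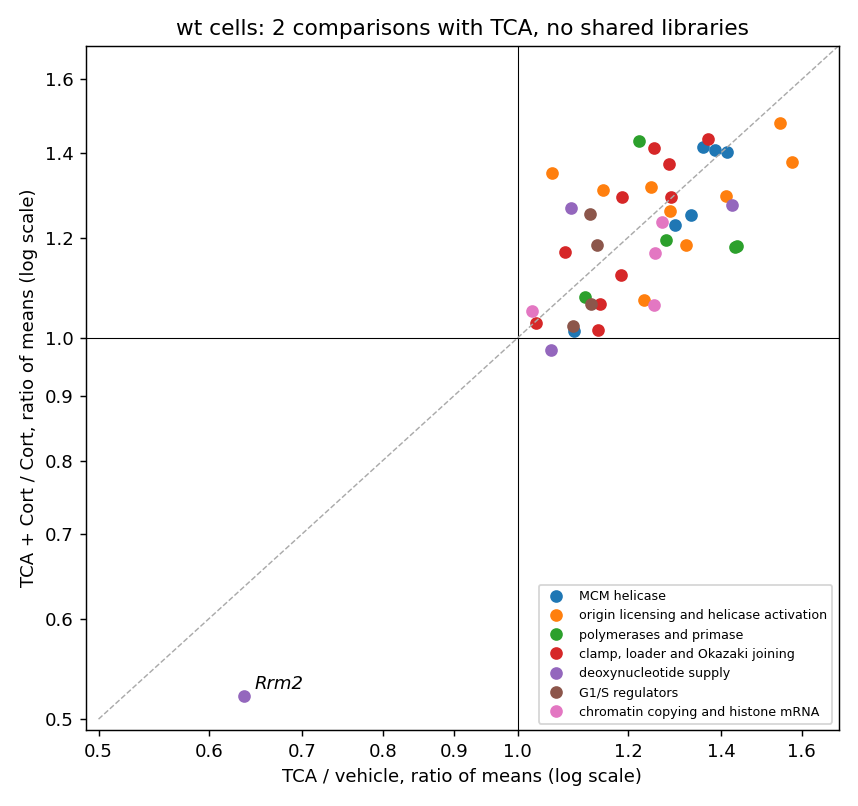
Ratio of mean normalised counts for TCA over vehicle (horizontal, log scale) and TCA plus Cort over Cort (vertical, log scale) in wt, 1 point per gene, coloured by role, with the line of equality dashed. All genes but Rrm2 lie above 1 on the horizontal axis, and Rrm2 lies at 0.636 and 0.521.

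Cort against vehicle called none of the 42 genes in wt by limma or limma voom, where 6 had an unadjusted p under 0.05 and 2.38% of 12749 genes were called. The median fold was 1.004. Mcm2 had 2761, 2626 and 2513 with Cort and 2563, 2583 and 2721 with vehicle. Pold1 had the lowest p, at 1485, 1450.0 and 1386 with Cort and 1584, 1668 and 1747 with vehicle (adjusted p = 0.0649), and its groups did not overlap. In 8 of the 42 genes every wt Cort library lay below every wt vehicle library and in 3 above, beside 11.3% and 8.03% of all genes. In tetra 1 of the 42 genes was called, beside 3.34% of 12863 genes (2.47% called higher). Rrm2 had 11162, 9584 and 10556 with Cort and 7377, 9381 and 7992 with vehicle (1.26-fold, adjusted p = 0.00874), and the lowest Cort library was just above the highest vehicle library. The call was lost without vehicle replicate 1 (adjusted p = 0.0798) or Cort replicate 1 (adjusted p = 0.0606), and its adjusted p lay between 0.00109 and 0.0798 over all alternatives. In 3 of the 42 genes every tetra Cort library lay above every tetra vehicle library and in 2 below, beside 8.96% and 7.32% of all genes. In wt, Rrm2 had 13347, 12859 and 12879 with Cort and 12555, 11697 and 12095 with vehicle (adjusted p = 0.253). The difference between the lines in the response to Cort called none of 40 genes by limma or limma voom, with 2 at an unadjusted p under 0.05 and 1.24% of 12215 genes called. For Rrm2 it was 0.24 ± 0.09 (tetra minus wt, adjusted p = 0.465). Without tetra vehicle replicate 2, Pold1 (0.34, adjusted p = 0.0310) and Rrm2 (0.33, adjusted p = 0.0482) were called; over all alternatives the adjusted p lay between 0.031 and 0.316 for Pold1 and between 0.0482 and 0.839 for Rrm2.

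Cort on top of TCA, a comparison that shares its TCA libraries with TCA against vehicle, also called none of the 42 in wt by limma or limma voom, with 11 of the 42 genes at an unadjusted p under 0.05 and 0.415% of 12774 genes called. The count rested on 1 library. Without wt TCA replicate 3, 10 of the 42 were called, 9 lower and 1 higher, as were 2570 genes in place of 53. The 9 were Mcm4, Mcm6, Gins1, Pola1, Prim1, Rfc1, Rrm2, Ccne2 and Slbp, and Cdt1 was the higher one. Pola1 had 1466, 1376 and 1564 with TCA plus Cort and 1686, 1797 and 1487 with TCA (adjusted p = 0.245, and 0.000769 without that library, the lowest of its alternatives, which reached 0.606). In 13 of the 42 genes every TCA plus Cort library lay below every TCA library, and in 1 above, beside 12.3% and 9.59% of all genes. In tetra none was called by limma or limma voom, 3 had an unadjusted p under 0.05, and 1.71% of 12830 genes were called. Rrm2 had 12045, 8851 and 11487 with TCA plus Cort and 8341, 8428 and 8152 with TCA, a ratio of means of 1.30 (adjusted p = 0.112), and its groups did not overlap. In 3 of the 42 genes every tetra TCA plus Cort library lay above every tetra TCA library and in 1 below, beside 6.02% and 5.49% of all genes. Without TCA plus Cort replicate 2, the library that was low for most of these genes, Rrm2 was called (adjusted p = 0.00769), as it was with a replicate block (0.0386); over all alternatives it lay between 0.00769 and 0.704.

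Untreated tetra cells were set beside untreated wt cells to ask how the genes differ before any treatment. Of the 41 genes tested, 17 were higher and 3 lower in tetra vehicle than in wt vehicle, beside 21.5% and 22.9% of 12462 genes (44.4% in all). Scaled to exon reads without Rn45s, the median log2 difference of all genes shifted to 0.11, that of the replication genes was 0.23 in place of 0.13, 28 were higher and 2 lower, and the split over all genes became 4545 higher and 1985 lower, against 2680 and 2857. Without tetra vehicle replicate 2 the count was 9 higher and 3 lower, and without the intensity trend 9 higher and 2 lower. Rrm2 had 7377, 9381 and 7992 in tetra and 12555, 11697 and 12095 in wt, 1.47-fold lower (adjusted p = 3.11e-09). The 10 epithelial and mammary markers summed to 527 to 659 in tetra vehicle and 1076 to 1225 in wt vehicle, the mesenchymal markers to 196208 to 201246 in tetra vehicle and 221072 to 226948 in wt vehicle, and the endothelial markers to 194.0 to 209.0 in tetra vehicle and 266 to 294 in wt vehicle. Rn45s took 21.3 to 23.7% of exon reads in tetra vehicle and 20.8 to 22.8% in wt vehicle; their part in the result was not tested. The level of Rrm2 in untreated tetra cells was near that of wt cells with TCA, 8249.8 ± 1026 in tetra and 7706 ± 546 in wt (SD, n = 3), a pair that was not tested.

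Uhrf1 had 6490.1, 7244 and 6979 in tetra and 5789, 5696 and 5697 in wt (1.21-fold, adjusted p = 9.57e-06). Cdc6 had 942, 1005 and 987 in tetra and 772, 771 and 816 in wt (1.24-fold, adjusted p = 7.35e-05), and Mcm4 3275, 3753 and 3357 in tetra and 2944, 2901 and 2964 in wt (1.18-fold, adjusted p = 0.000192). In these 3 genes every tetra library lay above every wt library. That held for 15 of the 41 genes, and in 3 every tetra library lay below, beside 25.7% and 26.4% of all genes. By role, 2 of 9 licensing and activation genes, 2 of 5 polymerase genes, 4 of 10 clamp and joining genes and 3 of 4 chromatin genes were higher. Without tetra vehicle replicate 2, Pola1, Prim1, Rfc1, Rfc2, Rfc4 and Ccne2 were not called (adjusted p 0.0884 to 0.239), which leaves 0 of 5 polymerase genes and 1 of 10 clamp and joining genes. Over all alternatives the adjusted p reached 0.106 for Pola1, 0.239 for Prim1, 0.15 for Rfc1, 0.149 for Rfc2, 0.0884 for Rfc4 and 0.206 for Ccne2, and Rfc1, Rfc2 and Ccne2 were also not called with a replicate block. Of the MCM genes 5 of 6 were higher, up to 1.18-fold, and Slbp had the largest rise (1.26-fold, adjusted p = 0.000356). Both CAF-1 subunits were called in opposite directions. Chaf1a had 2618, 2879 and 2645 in tetra and 2289, 2268 and 2410.1 in wt (1.17-fold, adjusted p = 0.000309). Chaf1b had 879, 980.1 and 932 in tetra and 1144, 1067 and 1204 in wt, 1.22-fold lower (adjusted p = 0.00023). Pcna had 4401, 4700.2 and 4220.1 in tetra and 4808, 4889 and 5043 in wt, 1.11-fold lower (adjusted p = 0.00768), but it was not called when scaled to exon reads without Rn45s (adjusted p = 0.385), without tetra vehicle replicate 3 or without the trend (0.00266 to 0.385 over its alternatives). The rises of Mcm3 and Mcm5 were lost without tetra vehicle replicate 2 (adjusted p = 0.0757 for Mcm3 and 0.104 for Mcm5), and that of Mcm5 also without wt vehicle replicate 2; over all alternatives they lay between 4.81e-05 and 0.0814 for Mcm3 and between 4.45e-05 and 0.117 for Mcm5.

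**Figure D5:**
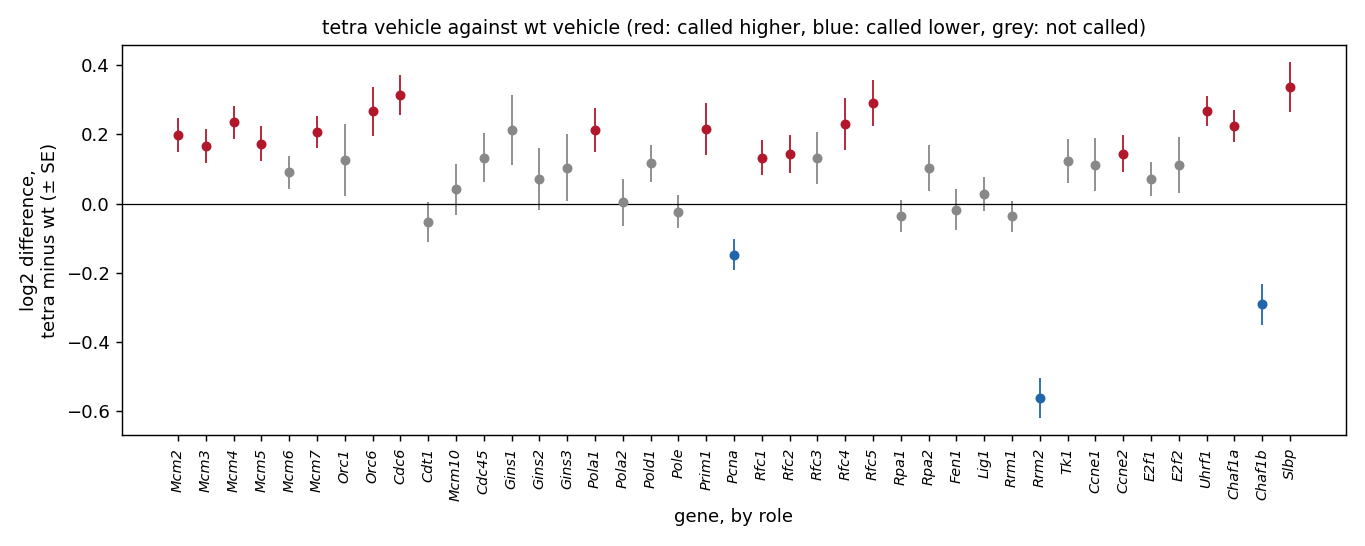
Log2 difference of each gene between tetra vehicle and wt vehicle (vertical axis, ± SE), with genes by role. Of 41 genes 17 are called higher and 3, Pcna, Rrm2 and Chaf1b, lower.

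Other genes of the same pathways, listed apart from the 42, were read in the same fits. In each list the genes with the smallest adjusted p are named, together with those that fell. Their counts stand beside the 28.8% of all tested genes that rose and the 28.6% that fell with TCA in wt, where 27 of 32 further replication factors rose and 1 fell. Recql4, a helicase of replication initiation, was 1.95-fold higher (adjusted p = 5.42e-07), Dna2, a nuclease of Okazaki fragments, 1.75-fold, and the origin subunit Orc2 1.62-fold, while Pold4, the smallest subunit of polymerase delta, was 2.02-fold lower (adjusted p = 5.91e-07). Of 10 further nucleotide genes 8 rose and 1, Tk2, fell, with Dut, Dck, Mthfd1 and Shmt1 at 1.52-, 1.51-, 1.40- and 1.65-fold. Of 28 further genes of G1/S control 13 rose and 4 fell. Mybl2, an E2F target and cell cycle transcription factor, was 1.86-fold and the ubiquitin ligase gene Skp2 1.78-fold higher, and the inhibitor Cdkn1a (p21) 1.47-fold, Rbl2 1.52-fold, Ccnd2 1.19-fold and Rb1 1.16-fold lower.

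Of 17 genes of the S-phase checkpoint and fork repair 14 rose and 2, Wee1 and Rad9a, fell. Hus1, Rad18, Usp1 and Exo1 were 1.81-, 1.72-, 1.61- and 1.54-fold higher. Of 9 further genes of chromatin copying 8 rose, with Cdca7 at 1.87-fold and Hells at 1.72-fold. Of 15 mitosis genes, which act after S phase, 11 rose and none fell, with Aurka at 1.67-fold and Bub1 at 1.54-fold. In tetra, no gene of these 6 lists was called with TCA. Between the lines, the TCA response of 21 of 32 replication factors and of 11 of 15 mitosis genes was lower in tetra than in wt, beside 19.9% of all genes. In vehicle, 17 of 32 replication factors were higher and 1 lower in tetra than in wt, and 12 of 15 mitosis genes were higher and none lower, beside 21.5% of all genes higher and 22.9% lower.

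The authors' deposited table for TCA against vehicle in wt gave another picture. Its lowest adjusted p over all genes was 0.806, so none of the 42 genes was called in it, although 41 of the 42 had a deposited log2 fold change above 0. Its header lists 5 group labels for 6 libraries, so whether the deposited test set TCA against vehicle as labelled is not known, and its p-values carry that doubt. Among the other 5 deposited tables, Rrm2 was called in the authors' deposited table for TCA plus Cort against TCA in wt (log2 fold change -0.18, adjusted p = 0.0344) and in that for tetra (log2 fold change 0.38, adjusted p = 0.00925), and no other gene of the 42 was called.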

How the data were processed

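RNA was prepared with a stranded total RNA kit with ribosomal RNA depletion, per the labels' protocols, and STAR 2.7.0f, cutadapt, HOMER 4.10.4 and mm10 are named per the submitters' processing notes. How HOMER counted strands is not given in the sources used here. The authors deposited 6 tables, each with 6 libraries, holding values that behave as a variance-stabilised log2 scale, a log2 fold change, a p-value and an adjusted p-value, per the file headers. Every library was mapped to its column by its label.

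The deposited values were turned back into read counts: the lowest value over the 6 libraries of a table marks a count of 0, and with it the stabilising formula was inverted. Below 1000, each recovered value was whole to within 0.01. Counts of the 24 libraries were then scaled with median-ratio size factors. Every level, mean, SD and fold in the text is on this scale, except the sums given as CPM and the shares of exon reads. The total of 3 counts, the smallest that is told from 0, equals 0.0981 to 0.136 CPM. The members of a group differed by more than sampling noise in every pair (chi-square per gene 2.42 to 40.8), so none was counted as a repeat.

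For groups within a table, limma 3.58.1 (R 4.3.3) with an intensity trend was fitted to the deposited log2-like values of its 6 libraries. For groups in different tables, and for differences between lines, it was fitted to log2(normalised count + 1). Genes had a mean normalised count of at least 10. The p-values were Benjamini-Hochberg adjusted over all genes tested and called below 0.05. Log2 differences on the deposited scale understate changes, most for low genes and to a degree that differs by table. For TCA against vehicle in wt the median of the 42 genes was 0.268 on that scale. As log2 of the normalised count plus 1 it was 0.330. The tables hold a different transcript for 3637 of 22981 genes; a gene whose transcript differed between the tables that a comparison joins was left out of it (among the 42, Tyms and Ccne2). Cdc45, Rfc1, Rpa1 and Lig1 differ only in a table that was not joined. Where a library stood in a pair of tables with different transcripts of Cdc45, Rfc1, Rpa1, Lig1 or Ccne2, one count was 99.963 to 100.83% of the other. The summed level of the immune markers is not reported here. Same-numbered libraries were checked for pairing. Python 3.11.15, numpy 2.4.6, pandas 2.3.3 and matplotlib 3.10.9 were used. The scripts were tested on simulated data.

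The members and lists were chosen with earlier results of these data known. Values in every library are given for the 2 genes with the smallest p of each role in TCA against vehicle in wt, for up to 6 called genes of each other comparison, and for genes against their role; the other genes shown per library were chosen after their values were seen. For the other lists, up to 4 genes by smallest adjusted p are named, and those that fell were added after their values were seen. Alternatives were limma voom, no trend, log2 of the normalised count plus 1 or plus 5, scaling to exon reads without Rn45s or to the upper quartile, no filter or a filter at 50, a replicate block, and leaving out each library.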

Additional observations from a re-analysis of the deposited data

Results flagged for a closer look

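The log2 change with TCA differed between tetra and wt in 27 of 40 genes by a test of the difference itself (limma over 12 libraries, tetra minus wt, adjusted over 12180 genes, of which 41.6% were called). With TCA none of the 42 genes was called in tetra, and 33 were higher and Rrm2 lower in wt. Among helicase genes the difference was -0.54 for Mcm2, -0.35 for Mcm3, -0.42 for Mcm4, -0.53 for Mcm5 and -0.53 for Mcm7. Among licensing and activation genes it was -0.51 for Orc1, -0.52 for Orc6, -0.38 for Cdc6, -0.32 for Cdt1, -0.52 for Mcm10, -0.31 for Cdc45 and -0.64 for Gins1, the lowest of all. The polymerase genes had -0.37 for Pola1, -0.35 for Pold1, -0.29 for Pole and -0.45 for Prim1. Clamp loading and joining genes had -0.46 for Rfc2, -0.46 for Rfc3, -0.48 for Rfc5, -0.20 for Rpa1, -0.37 for Rpa2 and -0.22 for Lig1. The G1/S factors had -0.24 for E2f1 and -0.35 for E2f2, and the chromatin genes -0.34 for Uhrf1 and -0.39 for Chaf1a. Rrm2 alone among the called genes had a positive difference, 0.67.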

How the results depend on the processing

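No called replication gene changed direction under the alternatives run. The median log2 difference of the replication genes changed sign in comparisons where it was near 0, each without 1 library: TCA plus Cort against Cort in tetra from -0.04 to 0.03 without TCA plus Cort replicate 2, TCA against vehicle in tetra from -0.01 to 0.02 without vehicle replicate 2 (and to 0.0029 without TCA replicate 3), Cort against vehicle in tetra from 0.02 to -0.0022 without vehicle replicate 1, Cort against vehicle in wt from 0.01 to -0.01 without Cort replicate 1, and TCA plus Cort against TCA in tetra from 0.02 to -0.01 without TCA plus Cort replicate 1. For TCA against vehicle in wt the count of called replication genes was 30 to 40 over all alternatives (30 to 33 without one library), and for TCA plus Cort against Cort in wt it was 30 to 34. Counts that moved by more than 1.5 times were as follows. Without one library, Cort against vehicle in wt called 148 to 499 genes (main 304). TCA plus Cort against TCA in wt called 6 to 2570.0 genes without one library (main 53), 0 to 10 of them replication genes. With a replicate block it called 9 genes in all. TCA against vehicle in tetra called 5 genes without the filter, 11 with the block and 1 to 6 without one library (main 2). TCA plus Cort against Cort in tetra called 0 genes without the trend, 55 with the block and 1 to 270.0 without one library (main 8), the highest without TCA plus Cort replicate 3. The Cort response between lines called 87 genes without the trend (main 151). Of the replication genes, Cort against vehicle in tetra called 0 to 1 without one library, TCA plus Cort against TCA in tetra 1 with the block and 0 to 1 without one library, tetra vehicle against wt vehicle 11 without the trend and 12 to 22 without one library, and the Cort response between lines 0 to 2. Over single genes and counts, 6983 values were labelled the same, 79 passed the threshold newly, 101 lost it and 33 counts moved. The same means that a gene kept its side of the threshold or a count stayed within 1.5 times its main value. A gene not called could change direction and still be labelled the same. The replicate numbers did not meet the rule for pairing: same-numbered libraries correlated between -0.43 and 0.49, and every library went best with its own number only in TCA plus Cort against Cort in wt (6 of 6), a hint from the data. With the block the replication genes called were 38 for TCA against vehicle in wt, 28 for the TCA difference between lines and 17 for tetra against wt vehicle. Depth limited genes near 3 counts, far below all 42 genes.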
